A study of Mus musculus with 4 samples.

Results

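The genes described here are those that cells switch on when they sense type I interferon. A list of 34 gene symbols was matched to the gene names of the deposited count files, which hold 31053 genes, and 33 of the 34 had a row. Mx2 was not analysed here. The rule used the symbols alone and no measured value, but the list was chosen with earlier results of these data known. The study asked how wound leukocytes differ when the secreted protein ANGPTL4 (angiopoietin-like 4) is missing. Live CD45+ cells, that is leukocytes, negative for propidium iodide were sorted from excisional wounds made with a 3 mm biopsy punch in the dorsal skin of male mice 8 weeks old. Angptl4+/+ wounds came from wild-type C57BL6/J mice and Angptl4-/- wounds from mice that lack the gene in every cell, both taken at 1 and at 5 days post wounding (dpw). Droplet sequencing gave 1 library per genotype and day, 4 in all, so no difference between the conditions could be tested against replicates. The labels give C57BL6/J for both genotypes, but the wild-type mice came from a supplier and the Angptl4-/- line from a repository. The loss of Angptl4 and any other difference between these mouse stocks therefore cannot be told apart. The number of mice behind a library was not given in the sources used here.

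The 4 libraries held 26981596 to 32962595 unique molecular identifiers (UMIs), each of which marks 1 captured RNA molecule, over 4772 to 5419 cell barcodes, of which 4738 to 5346 passed the filters. Any pair of libraries shared 5 to 15 cell barcodes, at most 0.311% of the smaller library. Angptl4 itself had 47 and 78 UMIs in the Angptl4+/+ libraries of 1 and 5 dpw, and 0 in both Angptl4-/- libraries. The cells were clustered without the interferon genes, and the clusters were named from marker genes as neutrophil-like (2697 to 3888 cells per library), macrophage-like (585 to 1442), monocyte-like (126 to 153), dendritic cell-like (122 to 430), NK cell/T cell-like (35 to 226) and B cell-like (2 to 27). All 10 neutrophil markers and all 13 macrophage markers were detected in their own class, at sums of 106717 to 219252 and 15623 to 22571 CPM (counts per 1000000, that is a gene's UMIs in a class divided by all UMIs of the class and scaled). The macrophage markers summed to 251 to 473 CPM in neutrophil-like cells, and the neutrophil markers to 2118 to 12591 in macrophage-like cells. Free RNA from burst cells reaches every droplet, and 7 macrophage genes stood in neutrophil-like cells at a median of 0.123% to 0.501% of their macrophage level. Their medians were 13.85% to 21.4% in dendritic cell-like, 2.94% to 7.72% in monocyte-like and 0.354% to 10.5% in NK cell/T cell-like cells. Free RNA and expression by these classes themselves were not told apart. Red blood cell markers summed to 940 CPM in the neutrophil-like class of the Angptl4-/- library of 5 dpw and to at most 1.97 CPM in that class of the other 3 libraries, and the part of these cells in the values below was not tested.

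Type I interferons bind a receptor made of IFNAR1 and IFNAR2, and kinases at the receptor then start a signal that passes through STAT2. A complex that holds STAT2 and IRF9 binds a DNA motif called the interferon-stimulated response element (ISRE) in the promoters of target genes. The targets include sensors of foreign RNA, enzymes and membrane proteins that hinder viruses, the ubiquitin-like protein ISG15 and chemokines such as CXCL10, and IRF7 among them amplifies the response. Neutrophils, monocytes and macrophages of injured tissue can switch these genes on without infection.

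RefSeq start sites of the GRCm38.p6 build gave promoters for 26 of the 33 genes, each from 250 bases before to 50 bases after the start. The motif GAAANNGAAA, the core shared by many ISREs, was searched on both strands, and overlapping matches were counted. It was present in at least 1 promoter of 16 of the 26 genes (61.5%), against 1079 of 27025 genes (3.99%) with a promoter of the same length. The motif TTCNNNGAA, the core of gamma-activated sites, was present in 5 of the 26 genes (19.2%), against 9.55% of all genes. A match says only that the letters are there. The promoters of 4 genes named in the results are shown, with matches to GAAANNGAAA or its reverse complement in capitals. Isg15 (chr4:156200769-156201068, minus strand) is, of the 33 genes, the one with the largest genotype difference in neutrophil- and macrophage-like cells at 1 dpw, and its promoter holds 3 overlapping matches that begin 78, 72 and 66 bases before the start. Rsad2 (chr12:26456403-26456702, minus strand) fell by the largest log2 ratio with time in Angptl4+/+ macrophage-like cells, and holds 1 match 120 bases before the start. Ifitm3 (chr7:141010695-141010994, minus strand) differed little between the days in macrophages, and its 2 matches lie after the start. Ifi44 (chr3:151749861-151750160, minus strand) was at or near 0 in neutrophil-like cells, and its window holds no match. Other genes paired differently. Cmpk2 also fell with time in macrophage-like cells but had 0 matches, and Bst2 was far lower in neutrophil-like than in macrophage-like cells but had 2. A link between matches and levels was not tested.
Isg15: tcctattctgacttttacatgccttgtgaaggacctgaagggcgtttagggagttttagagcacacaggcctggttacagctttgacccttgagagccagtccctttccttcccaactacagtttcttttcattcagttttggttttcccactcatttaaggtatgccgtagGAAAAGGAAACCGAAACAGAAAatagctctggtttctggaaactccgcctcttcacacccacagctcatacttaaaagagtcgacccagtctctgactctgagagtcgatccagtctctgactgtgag
Rsad2: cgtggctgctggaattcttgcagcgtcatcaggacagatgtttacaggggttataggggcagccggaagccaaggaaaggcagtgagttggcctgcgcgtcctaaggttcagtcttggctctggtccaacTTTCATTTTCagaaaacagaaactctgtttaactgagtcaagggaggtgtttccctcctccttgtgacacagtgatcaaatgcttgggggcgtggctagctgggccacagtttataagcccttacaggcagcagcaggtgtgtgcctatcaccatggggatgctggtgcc
Ifitm3: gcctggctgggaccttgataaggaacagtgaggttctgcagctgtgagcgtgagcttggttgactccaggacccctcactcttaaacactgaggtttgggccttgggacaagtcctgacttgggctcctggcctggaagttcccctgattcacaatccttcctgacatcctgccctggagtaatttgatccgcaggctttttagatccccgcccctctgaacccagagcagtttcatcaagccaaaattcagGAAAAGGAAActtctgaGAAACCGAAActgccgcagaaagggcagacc
Ifi44: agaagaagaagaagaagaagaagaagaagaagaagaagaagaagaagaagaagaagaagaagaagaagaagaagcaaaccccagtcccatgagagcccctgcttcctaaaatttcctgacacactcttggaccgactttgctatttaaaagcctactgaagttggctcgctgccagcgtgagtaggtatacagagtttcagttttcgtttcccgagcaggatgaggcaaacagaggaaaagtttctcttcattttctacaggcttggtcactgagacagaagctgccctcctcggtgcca

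Levels are given as CPM for each class and library. With fewer or smaller cells, the same level can come from fewer molecules, and a change in the share of cells that express a gene and a change per cell give the same CPM. Unless said otherwise, 4 values in a row are Angptl4+/+ at 1 dpw, Angptl4-/- at 1 dpw, Angptl4+/+ at 5 dpw and Angptl4-/- at 5 dpw. Ratios are log2 values, and the exact 95% interval in brackets covers counting error only, not the spread between mice. A gene is called higher or lower where its level differs by at least 1.5-fold between 2 libraries that together hold at least 100 of its UMIs, a rule of size and not a test.

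The 33 genes together made up 10187, 12304, 6075 and 6915 CPM of macrophage-like cells and 5488, 6755, 4789 and 5666 CPM of neutrophil-like cells. They made up 5991, 5545, 7716 and 7357 CPM of monocyte-like cells, 5770, 6001, 3922 and 4385 CPM of dendritic cell-like cells and 2354, 2298, 1297 and 1360 CPM of NK cell/T cell-like cells. The summed level was thus lower at 5 dpw in 4 of the 5 classes, in both genotypes, and higher at 5 dpw in monocyte-like cells. In neutrophil-, macrophage- and dendritic cell-like cells it was higher in Angptl4-/- than in Angptl4+/+ wounds on both days. Such sums lean on the most abundant genes, above all Ifitm3 with 244469 UMIs over all cells. They do not show how many genes moved. The 55 B cell-like cells held too few UMIs to describe the genes there.

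**Figure D1:**
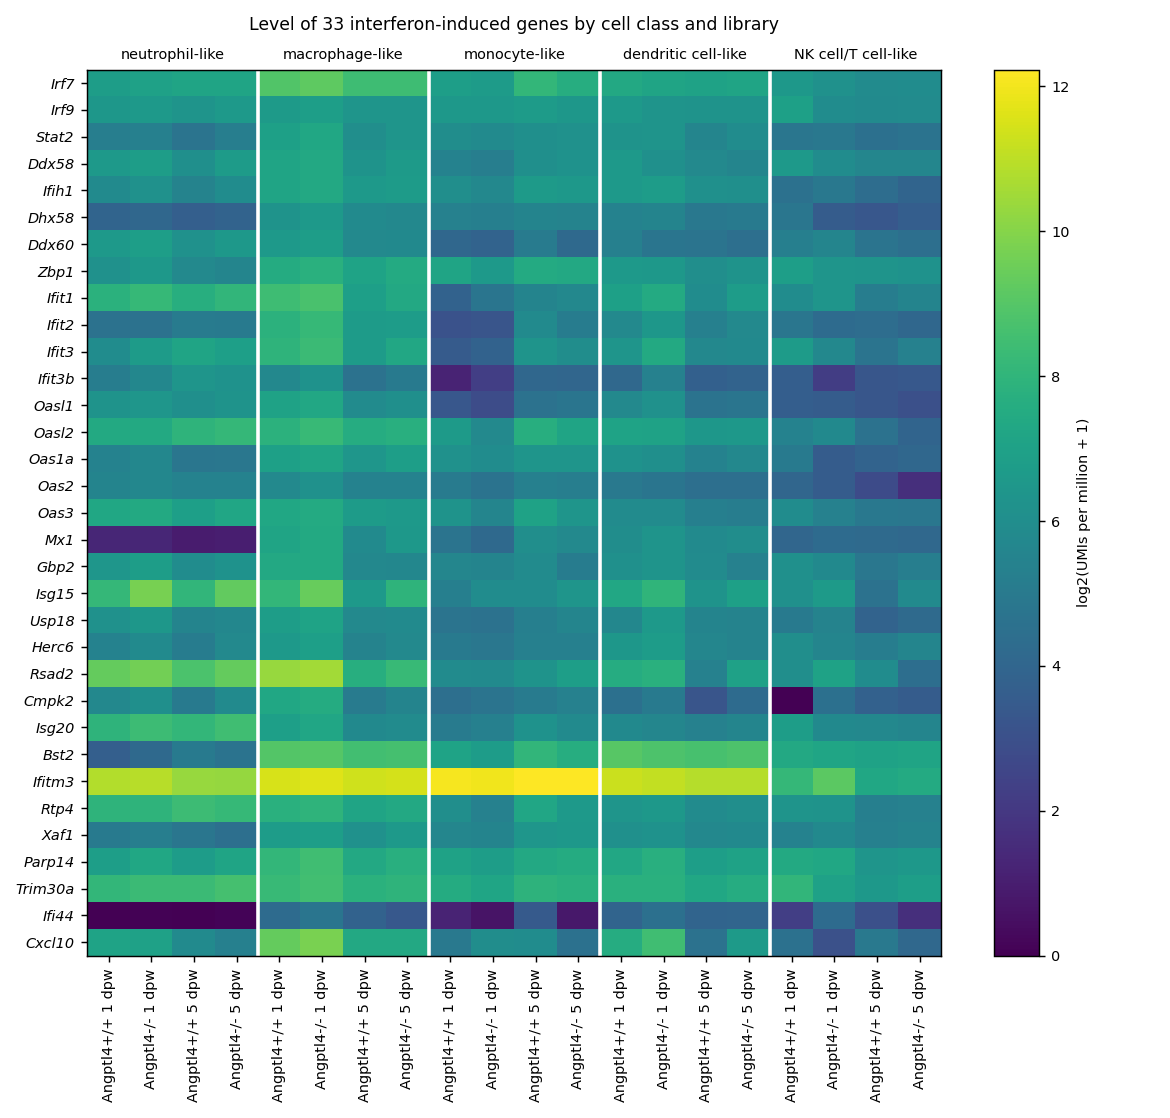
Heat map of the level of each of the 33 genes, as log2(CPM + 1), in 5 cell classes (blocks of columns) and 4 libraries (columns within a block), with genes in rows by role. Darker colours mark lower levels. Mx1 and Bst2 are darker in neutrophil-like than in macrophage-like cells, and the macrophage columns at 5 dpw are darker than those at 1 dpw.

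The first comparison asked which leukocytes carry each gene. The sharpest differences between macrophage-like and neutrophil-like cells were those of Mx1, Bst2 and Ifi44. Mx1, a GTPase gene, was at 143, 170, 56.8 and 89.5 CPM in macrophage-like cells. Among neutrophil-like cells it was at 1.47, 1.53, 0.926 and 1.06 CPM, from 29, 28, 8 and 13 UMIs. All 4 macrophage values lay far above all 4 neutrophil values, by log2 ratios of 6.59, 6.8, 5.94 and 6.40. The neutrophil level of Mx1 was 0.899% to 1.63% of the macrophage level. This is below the 6.36% to 10.2% that the highest of the 7 macrophage genes reached in neutrophil-like cells. It is above the median of those 7 genes, 0.123% to 0.501%. How much of the Mx1 level there is expression and how much is free RNA was not tested. Bst2, the surface protein tetherin that holds budding virus on the cell, was at 496, 517, 367 and 392 CPM in macrophage-like cells. The neutrophil-like class had 12.1, 17, 31 and 24.0 CPM of it. Ifi44, a cytoplasmic protein of poorly known function, had 162, 143, 156 and 60 UMIs in macrophage-like cells and 0, 1, 0 and 1 in neutrophil-like cells.

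Isg20 and Rtp4 leaned the other way. Isg20, an exonuclease that degrades RNA, was at 251, 335, 276 and 353 CPM in neutrophil-like cells and at 118, 149, 54.4 and 59.4 CPM in macrophage-like cells. The log2 ratio of macrophage-like to neutrophil-like cells was -1.08, -1.17, -2.35 and -2.57. Rtp4, which carries receptors to the cell surface, was at 247, 248, 329 and 293 CPM in neutrophil-like cells and at 218, 249, 140 and 167 CPM in macrophage-like cells, so that the classes were alike at 1 dpw and apart at 5 dpw. Rsad2, the gene of the antiviral enzyme viperin, changed sides with time. Its log2 ratio of macrophage-like to neutrophil-like cells was 0.98 and 0.92 at 1 dpw in Angptl4+/+ and Angptl4-/- wounds and -1.11 in both genotypes at 5 dpw. Over the genes with enough UMIs, the median of this ratio was 0.98, 0.92, 0.17 and -0.00. The median over all genes was 1.41, 1.42, 0.93 and 0.83, and a few abundant genes took a large share of neutrophil UMIs. The 10 most abundant genes held 34.1%, 35.4%, 26.1% and 25.9% of them. Against the median gene, the interferon-induced genes stood at -0.43, -0.50, -0.76 and -0.83, and Rsad2 and Ifitm3 turn negative at 1 dpw on that scale, so no general rank of the classes is drawn.

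Irf7, the amplifying transcription factor, was at 478, 578, 348 and 342 CPM in macrophage-like cells. It was at 110, 128, 143 and 140 CPM in neutrophil-like cells. Monocyte-like cells carried 115, 105, 269 and 195 CPM and dendritic cell-like cells 164, 142, 132 and 140 CPM of Irf7. The macrophage values were the highest of the 4 classes in every library. Ifitm3, a membrane protein that traps viruses in endosomes, was at 2851, 3160, 2607 and 2745 CPM in macrophage-like cells. Its neutrophil levels were 1827, 1906, 1310 and 1247 CPM. In monocyte-like cells it reached 4224, 4000, 4752 and 4812 CPM, which was 70.5%, 72.1%, 61.6% and 65.4% of the summed level of all 33 genes there. Stat2 and Irf9, both parts of the complex that binds the ISRE, were present in both large classes. Stat2 was at 122, 155, 64.5 and 81.5 CPM in macrophage-like and 36.3, 38.8, 25.1 and 36.0 CPM in neutrophil-like cells, and Irf9 at 88.3, 97.8, 79.5 and 95.5 CPM in neutrophil-like cells. Among NK cell/T cell-like cells the genes ran lower, and Ifitm3 was at 281, 566, 156 and 176 CPM.

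In macrophage-like cells these genes fell broadly from 1 to 5 dpw. In Angptl4+/+ wounds all 33 genes had a lower level at 5 dpw, and 20 of the 33 were called lower and 0 higher. Over all 8683 genes with enough UMIs, 9.2% were called lower and 18.9% higher. In Angptl4-/- wounds all 33 again had a lower level, with 25 called lower and 0 higher, against 9.7% and 13.1% of 7658 genes. The median log2 ratio of the interferon-induced genes was -0.84 and -0.92 in the 2 genotypes, against 0.15 and 0.07 over all genes tested. The neutrophil markers in the macrophage-like class fell over the same days, from 12591 and 10694 to 2132 and 2118 CPM, and their part in the fall was not tested.

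Rsad2 fell from 1298 to 203 CPM in Angptl4+/+ macrophage-like cells, a log2 ratio of -2.68 (-2.74 to -2.61). In Angptl4-/- cells it fell from 1477 to 298 CPM, a log2 ratio of -2.31 (-2.38 to -2.24). Both values at 5 dpw thus lay far below both values at 1 dpw. Cmpk2, a mitochondrial nucleotide kinase whose gene lies close to Rsad2 on chromosome 12, had 157, 184, 32.5 and 44.5 CPM. The log2 ratio of Cmpk2 was -2.27 (-2.44 to -2.10) in Angptl4+/+ cells. The Angptl4-/- ratio was -2.05 (-2.24 to -1.86). Cxcl10, a chemokine that draws activated T cells and NK cells, had 652, 875, 165 and 168 CPM. It fell by 1.99 and by 2.38 on the log2 scale. A UMI of Cxcl10 was present in 19.4%, 21.7%, 7.14% and 11.6% of the macrophage-like cells. Its UMIs were unevenly spread, since 50% of them lay in 1.52%, 2.21%, 0.624% and 0.855% of these cells.

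The other genes with large falls came from several roles. Gbp2, a GTPase that attacks membranes around intracellular microbes, was at 164, 173, 51.5 and 50 CPM, log2 ratios of -1.68 (-1.82 to -1.54) and -1.79 (-1.98 to -1.61). Ifit1, which binds RNA lacking the host cap methylation, was at 350, 418, 118 and 167 CPM and fell by 1.57 and 1.32. Isg15 was at 270, 677, 93.4 and 247 CPM and fell by 1.53 and 1.46. Mx1 fell by 1.33 (-1.47 to -1.19) and 0.92 (-1.08 to -0.77), and Ifit3, a partner of Ifit1, by 1.27 and 1.02 from 248 and 323 to 103 and 159 CPM. Ifi44 was called lower in Angptl4-/- cells alone, at -1.47 (-1.93 to -1.03), against -0.47 (-0.79 to -0.14) in Angptl4+/+ cells, and the difference between the genotypes was not tested. Ifit3 and Ifit3b, Oas1a and Oas1g, and Trim30a and Trim30d are close copies of each other, so how their reads were split is uncertain.

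Ifitm3, Bst2, Irf9 and Irf7 had smaller ratios. Ifitm3 had log2 ratios of -0.13 and -0.20, and Bst2 of -0.43 and -0.40. Irf9, the DNA-binding part of the complex with Stat2, was at 99.1, 113, 82.4 and 81.2 CPM, log2 ratios of -0.27 and -0.48. Irf7 had -0.46 and -0.76, and was called lower in Angptl4-/- cells. Stat2 was called lower in both genotypes, at -0.92 and -0.93. The 5 sensors of foreign nucleic acid (Ddx58, Ifih1, Dhx58, Ddx60 and Zbp1) had log2 ratios between -0.88 and -0.42 in Angptl4+/+ cells and between -1.02 and -0.33 in Angptl4-/- cells. Among them Ddx58, the gene of RIG-I, was at 139, 164, 75.7 and 100 CPM, and Ifih1, the gene of MDA5, at 139, 167, 95 and 103 CPM. Dhx58, the gene of LGP2, which tunes the other RNA helicases, was at 77.5, 94.8, 56.0 and 51.4 CPM, and the helicase gene Ddx60 at 93.9, 111, 52.6 and 54.8 CPM. Zbp1, a sensor of left-handed nucleic acid that can trigger cell death, was at 183, 219, 137 and 175 CPM, and moved least of the 5. For all 5 sensors both values at 5 dpw lay below both values at 1 dpw. The 5 genes of the OAS family, some of whose products make the messenger that activates RNase L, ran from -1.20 to -0.30 and from -1.26 to -0.31. Oasl1 was at the low end. Parp14, an ADP-ribosyl transferase, was at 278, 351, 163 and 209 CPM, and the ubiquitin ligase gene Trim30a at 301, 369, 222 and 243 CPM. Xaf1, which favours cell death, was at 108, 115, 72.7 and 96.8 CPM. Ifit2, a further Ifit1 partner and 1 of the 3 index genes used for single cells, was at 232, 292, 105 and 106 CPM, and was the lower at 5 dpw in both genotypes.

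**Figure D2:**
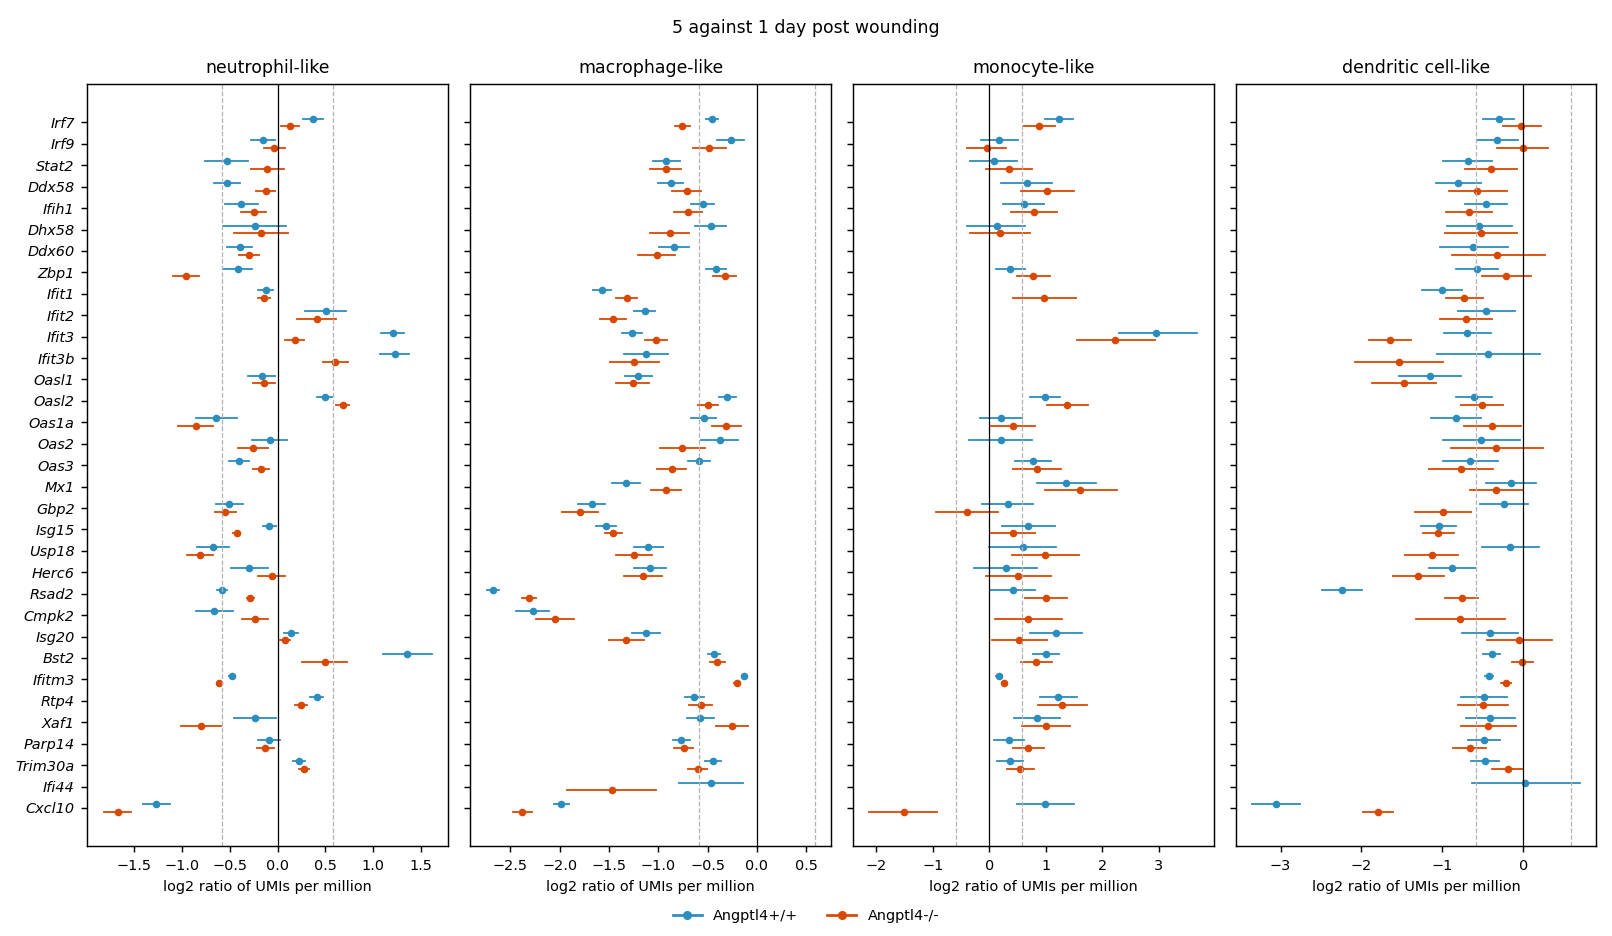
Log2 ratio of the level at 5 dpw to that at 1 dpw for each gene with at least 100 UMIs, by cell class, with 1 dot per genotype and bars for the 95% counting interval. Dashed lines mark 1.5-fold. Every dot of macrophage-like cells lies below 0, whereas nearly all dots of monocyte-like cells lie above 0.

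The fall was present in both macrophage-like clusters. One cluster, led by Cav1, Sdc1 and Arg1, held 81.7%, 76.4%, 65.1% and 54.9% of the macrophage-like cells, and the other, led by Ccl12, Cbr2 and the complement gene C1qa, held the rest. In the Arg1 cluster all 33 genes tested in Angptl4+/+ and all 32 tested in Angptl4-/- wounds were below 0, with median log2 ratios of -1.26 and -1.21. In the C1qa cluster 33 of 33 and 31 of 33 genes were below 0, with medians of -0.51 and -0.72. Both clusters thus held the lower levels at 5 dpw.

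In neutrophil-like cells the change with time depended on the scale. The median gene of all genes tested rose by 0.65 on the log2 scale in Angptl4+/+ and 0.68 in Angptl4-/- cells between 1 and 5 dpw, while the share of the 10 most abundant genes went from 34.1% and 35.4% to 26.1% and 25.9%. The interferon-induced genes had medians of -0.23 and -0.14. On the CPM scale 3 of 31 were called higher and 5 lower in Angptl4+/+ cells, against 54.1% and 4.45% of 6605 genes. In Angptl4-/- cells 2 of 31 were called higher and 6 lower, against 55.6% and 4.17% of 6670 genes. After the median gene was set to 0, 1 was called higher and 22 lower in Angptl4+/+ cells, against 19.8% and 19.2% of all genes. In Angptl4-/- cells 0 were then called higher and 23 lower, against 20.6% and 19%. The 6 neutrophil-like clusters differed in their median log2 ratio with time on the CPM scale. The cluster led by Csf1 and Ccdc126 had -0.82 and -0.98 in the 2 genotypes, with 25 of 26 and 28 of 28 genes below 0. The median over all genes in that cluster was 0.23 and 0.35. In the cluster led by Nlrp12 and Pglyrp1 the medians were 0.11 and 0.20, with 17 of 29 and 18 of 31 genes above 0. Both lay below the median over all genes there, 0.62 and 0.61. The cluster led by Csf3 and Il1a had -0.71 in Angptl4+/+ and 0.30 in Angptl4-/- cells, against 0.10 and 0.19 over all genes. The other 3 clusters had medians between -0.62 and -0.25, against 0.26 to 0.45 over all genes. The difference between the clusters was not tested.

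Cxcl10, Usp18 and Oas1a had lower levels at 5 dpw on either scale. Cxcl10 was at 136, 127, 56.5 and 39.6 CPM, and fell by 1.27 (-1.41 to -1.13) and 1.68 (-1.82 to -1.54). Usp18, which removes ISG15 from proteins and dampens the interferon receptor, was at 70.7, 87.1, 44.3 and 49.5 CPM, log2 ratios of -0.67 and -0.82. Oas1a had log2 ratios of -0.64 and -0.86. Bst2 went up in Angptl4+/+ neutrophil-like cells by 1.36 (1.10 to 1.62), and had 0.49 (0.26 to 0.73) in Angptl4-/- cells. The levels of Bst2 stood at 2.44% to 8.45% of the macrophage level. This is below the highest of the 7 macrophage genes in each library but above their median of 0.123% to 0.501%. Neutrophil-like cells with at least 2 UMIs of Rsad2, Ifit1 and Ifit2 together had 28.4, 39.8, 93.2 and 59.8 CPM of Bst2. The remaining neutrophil-like cells had 4.66, 4.64, 14.3 and 10.9 CPM. How much of the Bst2 level is expression and how much is free RNA was not tested. Ifit3 was at 60.5, 104, 140 and 118 CPM, with log2 ratios of 1.21 (1.09 to 1.32) and 0.18 (0.08 to 0.28). Its close copy Ifit3b was at 35.1, 49.3, 82.2 and 74.9 CPM, with 1.23 and 0.60. The median gene of all genes tested rose by 0.65 and 0.68 over the same days. In Angptl4-/- cells the ratios of Bst2 and Ifit3 lay below that rise, and Ifit3b turned to -0.08 against the median gene. On that scale Bst2 alone stayed called higher in Angptl4+/+ cells, and 0 genes did in Angptl4-/- cells.

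Monocyte-like cells went the opposite way from macrophage-like cells. All 26 genes tested in Angptl4+/+ wounds had a higher level at 5 dpw, with 14 called higher and 0 lower, against 7.15% and 9.05% of 4518 genes. In Angptl4-/- wounds 24 of 27 had a higher level, with 16 called higher and 1, Cxcl10, lower, against 6.13% and 6.32% of 4272 genes. The medians were 0.61 and 0.78, against -0.07 and -0.03 over all genes tested. The Cxcl10 call in Angptl4-/- wounds rests on 114 UMIs at 1 dpw, 79 of them in 1 cell, and 31 at 5 dpw. The part of that cell in the fall was not tested. Ifit3 had 23, 24, 95 and 86 UMIs, or 10.2, 13.4, 79.7 and 62.2 CPM, log2 ratios of 2.96 (2.29 to 3.68) and 2.22 (1.55 to 2.94). Mx1 was at 25.4, 17.3, 65.4 and 52.8 CPM, log2 ratios of 1.36 (0.85 to 1.88) and 1.61 (0.99 to 2.27). The values at 5 dpw exceeded those at 1 dpw in both genotypes for both genes.

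Irf7 rose in monocyte-like cells by 1.23 (0.99 to 1.48) and 0.89 (0.61 to 1.16) while it was lower at 5 dpw in macrophage-like cells. Rtp4 was at 65.1, 40.1, 152 and 98.4 CPM, log2 ratios of 1.22 and 1.30. Oasl2, an OAS-like protein, was at 101, 52.9, 200 and 138 CPM, log2 ratios of 0.99 and 1.39. The makeup of the class moved as well. Ace, Adgre4, Treml4 and Cd300e, markers of the patrolling monocytes of blood, each had a higher level at 5 dpw, with Ace at 35.6, 28.4, 231 and 193 CPM, and Prtn3, a gene of immature myeloid cells, went from 180 and 178 to 22.6 and 28.9 CPM. Ly6c2, a marker of inflammatory monocytes, was at 962, 841, 1187 and 1461 CPM. Ccr2 and Chil3, from the same list of monocyte markers, went the other way. Ccr2 was at 1494, 1727, 1122 and 1258 CPM and Chil3 at 2077, 2206, 1428 and 1943 CPM. The cells with a UMI of any of those 4 patrolling markers were 75 of 153, 67 of 126, 88 of 129 and 90 of 131. Without them the median log2 ratio over the genes tested was 0.65 over 11 genes in Angptl4+/+ and 0.91 over 8 genes in Angptl4-/- wounds. When cells were instead assigned by their summed share of marker UMIs, 2322 cells were monocyte-like in place of 539, and the medians were -0.08 and -0.38, so the rise with time in monocyte-like cells rests on how the class was drawn.

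Dendritic cell-like cells followed the macrophages. With 0.5 UMI added to each count, all 32 genes tested had a lower level at 5 dpw in both genotypes. Without it Ifi44 stood at 0.016 in Angptl4+/+ wounds, and the other 31 were lower. In Angptl4+/+ wounds 13 were called lower and 0 higher, against 12% and 5.92% of 6761 genes, and in Angptl4-/- wounds 15 lower and 0 higher, against 8.96% and 4.08% of 5936 genes. The medians were -0.51 and -0.55, against -0.08 and -0.09 over all genes tested. With equal weight per cell the Angptl4-/- median was -0.17. Cxcl10 was at 191, 355, 23.0 and 102 CPM in dendritic cell-like cells, but single cells carried much of it. The top cell held 58.8%, 29.9%, 36.2% and 54.2% of its UMIs. Rsad2 was at 192, 217, 40.6 and 128 CPM, log2 ratios of -2.24 (-2.49 to -2.0) and -0.76 (-0.97 to -0.56). No UMI of Rsad2, Ifit1 or Ifit2 was present in 80 of 146, 73 of 122, 277 of 430 and 176 of 279 cells. The UMIs of these genes together were unevenly spread, with 50% of them in 6, 4, 12 and 6 cells. The median of NK cell/T cell-like cells was -0.86 over 13 genes in Angptl4+/+ and -0.37 over 15 genes in Angptl4-/- wounds. Each of these genes was below 0 there, from 35 cells per genotype at 1 dpw. The medians over all genes tested in this class were -0.04 and -0.03. In Angptl4+/+ wounds 9 of 13 were called lower and 0 higher, against 21.2% and 19.7% of 3845 genes. In Angptl4-/- wounds it was 5 of 15 lower and 0 higher, against 17.9% and 16.7% of 3835 genes. Neutrophil markers fell over the same days, from 4197 and 3280 to 745 and 1028 CPM in dendritic cell-like cells. In NK cell/T cell-like cells these markers fell from 20504 and 17415 to 2954 and 2606 CPM. Their part in the falls of both classes was not tested.

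The next comparison set Angptl4-/- beside Angptl4+/+ wounds at the same day. In neutrophil-like cells at 1 dpw, 28 of 31 genes had a higher level in Angptl4-/- wounds, by a median log2 ratio of 0.24 against -0.09 over all genes tested. Only Isg15 and Ifit3 were called higher and 0 lower, against 0.958% and 3.66% of 6469 genes. At 5 dpw 21 of 31 had a higher level, by a median of 0.21 against -0.07. Isg15, Cmpk2, Herc6 and Ddx58 were called higher and 0 lower, against 1.82% and 3.66% of 6700 genes. After centring on the median gene 6 were called higher, against 2.42% of all genes, and with classes drawn by marker share 10 were. Among the alternatives, the share over all genes was computed for centring alone. By neutrophil-like cluster, the medians were 0.15 to 0.51 at 1 dpw in 5 of the 6 clusters and -0.31 in the cluster led by Csf3 and Il1a, where 17 of 22 genes had the lower level in Angptl4-/- wounds. At 5 dpw all 6 medians were above 0, from 0.07 to 0.69. In macrophage-like cells at 1 dpw all 33 genes had a higher level in Angptl4-/- wounds, by a median of 0.26 against 0.02. Isg15 alone was called higher and 0 lower, against 1.95% and 1.86% of 7737 genes. At 5 dpw 27 of 33 had a higher level, by a median of 0.17 against -0.02. Isg15, Mx1 and Ifit3 were called higher and 0 lower, against 1.81% and 3.37% of 8575 genes, and 1 to 7 genes were called higher under the alternatives. Mast cell markers summed to 292 CPM in the macrophage-like class of the Angptl4-/- library of 5 dpw and to at most 2.59 CPM in that class of the other 3 libraries, and their part in these values was not tested. The shift of the whole set was small beside the 1.5-fold line, and with 1 library per condition it cannot be set against the spread between mice.

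**Figure D3:**
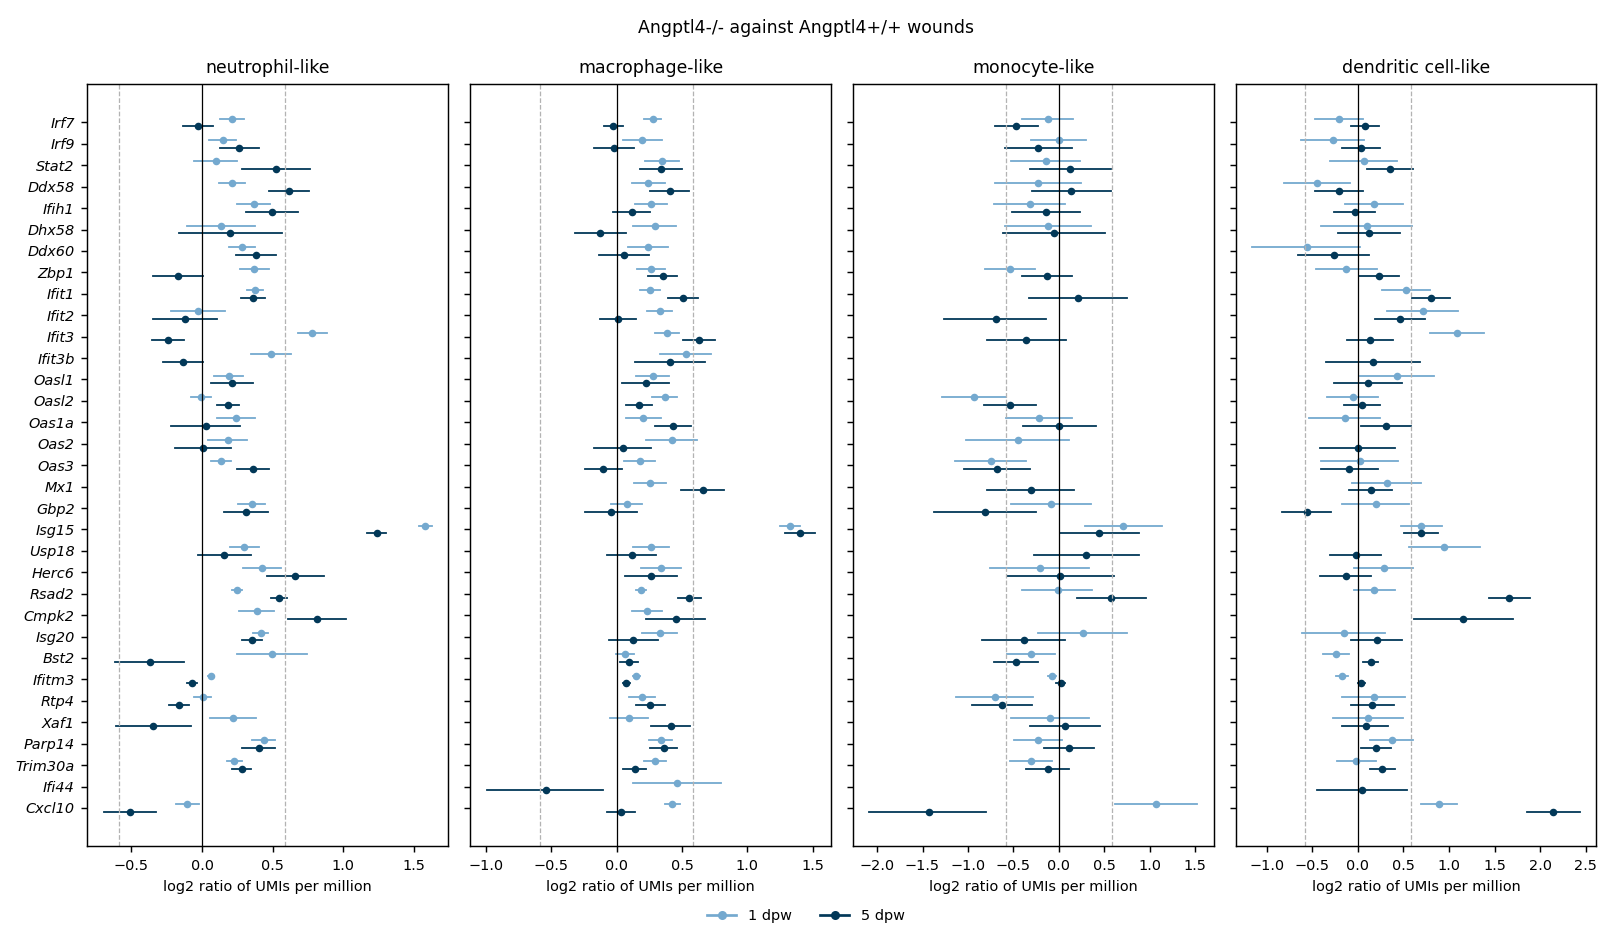
Log2 ratio of the level in Angptl4-/- to that in Angptl4+/+ wounds for each gene with at least 100 UMIs, by cell class, with 1 dot for 1 dpw and 1 for 5 dpw and bars for the 95% counting interval. Dashed lines mark 1.5-fold. Isg15 lies beyond the line on both days in neutrophil-, macrophage- and dendritic cell-like cells, and most other genes lie between the lines.

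Isg15 stood apart from the rest of the set. Its product is a small ubiquitin-like protein that is joined to other proteins and also secreted. In neutrophil-like cells Isg15 was at 280, 838, 264 and 622 CPM. The log2 ratio of Angptl4-/- to Angptl4+/+ wounds was 1.58 (1.54 to 1.63) at 1 dpw and 1.24 (1.17 to 1.30) at 5 dpw, which ranked 14 of 6469 and 24 of 6700 genes. In macrophage-like cells it was 1.33 (1.25 to 1.40) and 1.40 (1.29 to 1.51), rank 11 of 7737 and 22 of 8575. Dendritic cell-like cells held 159, 258, 77.1 and 125 CPM of Isg15, ratios of 0.70 (0.48 to 0.92) and 0.69 (0.51 to 0.88). In monocyte-like cells it was at 37.9, 61.8, 61.2 and 83.2 CPM, ratios of 0.71 (0.29 to 1.13) and 0.44 (0.01 to 0.89). The Angptl4-/- value was the higher in all 4 classes on both days.

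Isg15 was the only one of the 33 genes called higher on both days in either neutrophil-like or macrophage-like cells. Among all genes tested on both days, 24 of 6170 (0.389%) in neutrophil-like and 17 of 7627 (0.223%) in macrophage-like cells were called higher on both days. The difference was present in each of the 6 neutrophil-like clusters, from 1.22 to 1.85 at 1 dpw and from 0.82 to 1.58 at 5 dpw. In the macrophage-like clusters it was 1.40 and 2.06 in the Arg1 cluster and 1.27 and 0.86 in the C1qa cluster. More cells carried the RNA as well. Among neutrophil-like cells 41.7%, 56.4%, 28.8% and 39.9% held a UMI of Isg15, and 18.7%, 34.2%, 15.4% and 25% after each cell was thinned to 1000 UMIs. Among macrophage-like cells the thinned shares were 16.6%, 26.8%, 6.02% and 17.5%. The next largest log2 ratios in neutrophil-like cells were those of Ifit3 at 1 dpw, 0.78 (0.68 to 0.89), and of Cmpk2 at 5 dpw, 0.81 (0.61 to 1.02).

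Isg15 (ENSMUSG00000035692) lies near the end of chromosome 4, at chr4:156199424-156200818 on the minus strand of GRCm38. Of 22 other genes within 5 Mb that could be tested on both days in neutrophil-like cells, 3 were also called higher on both days in Angptl4-/- wounds. These were Agrn, Noc2l and Samd11, against 0.389% of all 6170 genes. In macrophage-like cells it was 0 of 31, against 0.223% of all 7627 genes, a share at which a count of 0 says little. Ddx58, on the same chromosome but far away, was at 96.8, 112, 67.2 and 103 CPM in neutrophil-like cells. Its ratio was 0.21 (0.12 to 0.30) at 1 dpw and 0.62 (0.47 to 0.76) at 5 dpw.

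The remaining partners of Isg15 moved less. Usp18 had ratios of 0.30 and 0.16 in neutrophil-like and 0.26 and 0.11 in macrophage-like cells. Herc6, the mouse ligase that joins ISG15 to its targets, was at 41.6, 56.0, 33.9 and 53.6 CPM in neutrophil-like cells, ratios of 0.43 (0.29 to 0.56) and 0.66 (0.46 to 0.86). Cmpk2 was at 50.9, 66.5, 32.2 and 56.6 CPM there, and Rsad2 at 659, 781, 439 and 641 CPM, ratios of 0.25 (0.21 to 0.28) and 0.55 (0.49 to 0.60). For these 3 genes both Angptl4-/- values lay above the Angptl4+/+ value of the same day. Ifit3 had 0.78 at 1 dpw and -0.24 (-0.35 to -0.13) at 5 dpw, so its direction differed between the days, a difference that was not tested. Cxcl10 and Ifitm3 showed little difference at 1 dpw in neutrophil-like cells, at -0.10 and 0.06. At 5 dpw Cxcl10 had -0.51 (-0.70 to -0.33), and its top cell held 23.8% of its UMIs in Angptl4+/+ and 21.0% in Angptl4-/- wounds.

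Among macrophage-like cells, Mx1 was called higher at 5 dpw at 0.66 (0.49 to 0.82), after 0.25 (0.13 to 0.38) at 1 dpw. Ifit3 had 0.39 (0.30 to 0.48) and 0.63 (0.51 to 0.75), and Rsad2 had 0.19 and 0.55. Ifi44 differed in direction, at 0.46 (0.13 to 0.80) and -0.54 (-1.0 to -0.10), from 143 against 162 and from 60 against 156 UMIs. The 2 macrophage-like clusters differed in this comparison. In the Arg1 cluster all 33 genes at 1 dpw and 30 of 32 at 5 dpw had a higher level in Angptl4-/- wounds, with medians of 0.36 and 0.50. In the C1qa cluster 20 of 33 and 13 of 33 had a higher level, with medians of 0.05 and -0.04. The difference between the clusters was not tested.

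In monocyte-like cells fewer than 50% of the genes had a higher level in Angptl4-/- wounds. At 1 dpw 4 of 23 genes had a higher level in Angptl4-/- wounds, with Cxcl10 and Isg15 called higher and Rtp4, Oas3 and Oasl2 lower, against 1.6% and 1.93% of 4934 genes. At 5 dpw 11 of 27 had a higher level, with 0 called higher and Rtp4, Oas3, Ifit2, Gbp2 and Cxcl10 lower, against 1.72% and 2.89% of 3668 genes. The medians were -0.20 and -0.13, against -0.02 and 0.01, and the former ran from -0.41 to 0.18 under the alternatives, with 0.18 by marker share. Oasl2 had -0.93 (-1.29 to -0.58) and -0.54 (-0.82 to -0.26), and Rtp4 had -0.70 (-1.13 to -0.28) and -0.63 (-0.96 to -0.30). Oas3, which makes the RNase L messenger, was at 76.6, 45.6, 131 and 81.7 CPM, ratios of -0.75 and -0.68. On both days the Angptl4-/- value was below the Angptl4+/+ value for all 3. With cells assigned by their summed marker share, Oasl2 and Rtp4 turned to 0.12 and 0.11 at 1 dpw. Cxcl10 had 68, 114, 72 and 31 UMIs, and 79 of the 114 came from 1 cell. Its ratio at 1 dpw was 1.07 (0.62 to 1.52) with that cell and -0.63 without it.

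In dendritic cell-like cells, 18 of 29 genes at 1 dpw and 26 of 33 at 5 dpw had a higher level in Angptl4-/- wounds, by medians of 0.11 and 0.14 against 0.00 and 0.01. At 1 dpw Ifit3, Usp18, Cxcl10, Ifit2 and Isg15 were called higher and 0 lower, against 3.14% and 3.74% of 4548 genes. At 5 dpw Cxcl10, Rsad2, Cmpk2, Ifit1 and Isg15 were called higher and 0 lower, against 2.54% and 2.47% of 7451 genes. Ifit3 was at 82.0, 174, 50.7 and 55.7 CPM, ratios of 1.09 (0.79 to 1.39) and 0.14 (-0.12 to 0.39). Rsad2 had 0.18 (-0.04 to 0.40) at 1 dpw and 1.66 (1.43 to 1.89) at 5 dpw. Cxcl10 had 0.89 and 2.15 (1.86 to 2.44), where 238 of 439 UMIs of the Angptl4-/- library at 5 dpw came from 1 cell. With cells assigned by their summed marker share, Ifit3 and Cxcl10 turned to -0.64 and -0.50 at 1 dpw and the median to -0.35, so the direction at 1 dpw rests on how the class was drawn. With interferon genes kept in the clustering, Ifit1 turned from 0.80 to -0.14 at 5 dpw and 0 of 30 genes were called higher.

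The last question was how the programme is spread over single cells. A cell was called index-positive where the UMIs of Rsad2, Ifit1 and Ifit2 summed to at least 2. In macrophage-like cells 46.3%, 46.7%, 25.2% and 37.6% were positive, and in neutrophil-like cells 28.0%, 32.6%, 19.6% and 24.0%. Depth moves such shares, since positive macrophages had median UMIs of 9118.5, 8013, 9739 and 12333 and negative ones 5060, 3679.5, 7431 and 10526. After each cell was thinned to 1000 UMIs the shares were 22.6%, 25.4%, 6.95% and 10.5% in macrophage-like and 14.1%, 17.6%, 11.2% and 13.5% in neutrophil-like cells. Both classes thus held fewer positive cells at 5 than at 1 dpw in both genotypes, before and after thinning. Of the 55 B cell-like cells 0 were positive, which allows a share of up to 5.45%.

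**Figure D4:**
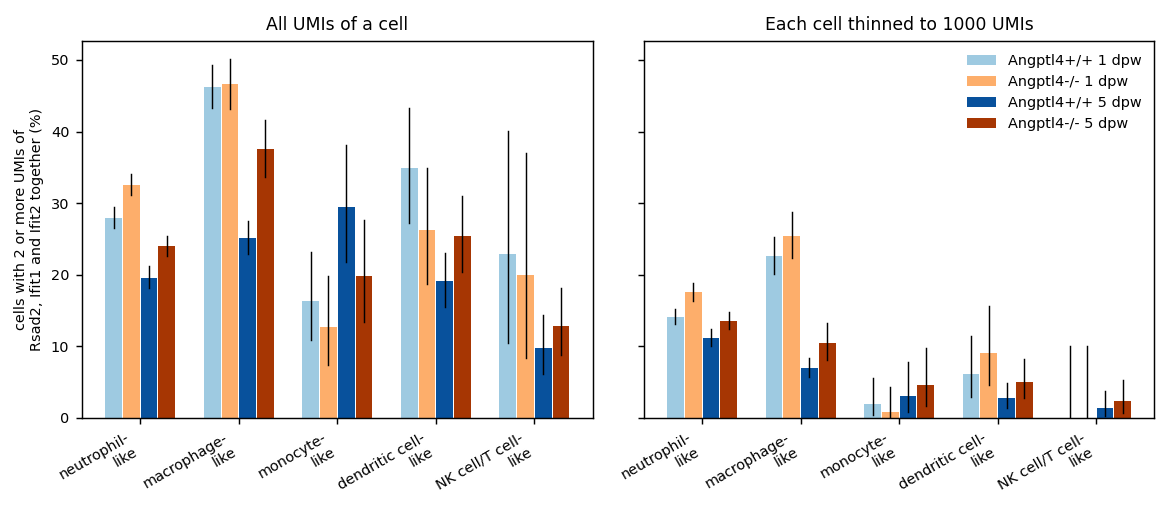
Percentage of cells that were index-positive (at least 2 UMIs of Rsad2, Ifit1 and Ifit2 together), by class and library, from all UMIs and after thinning to 1000 UMIs per cell, with exact 95% intervals for the counting of cells. Macrophage-like cells at 1 dpw have the tallest bars, at 46.3% and 46.7%, and thinning lowers every bar.

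Angptl4-/- wounds had more index-positive neutrophil-like cells, by 4.65 percentage points (2.58 to 6.71) at 1 dpw and 4.39 (2.32 to 6.44) at 5 dpw. After thinning the differences were 3.48 (1.83 to 5.13) and 2.37 (0.686 to 4.03). In macrophage-like cells the difference was 0.392 points (-4.10 to 4.89) at 1 dpw and 12.4 (7.96 to 17) at 5 dpw. The latter shrank to 3.52 (0.844 to 6.55) after thinning, and the median depth of macrophage-like cells at 5 dpw was 8113.5 UMIs in Angptl4+/+ and 11238 in Angptl4-/- wounds. All of these intervals cover the counting of cells and not the spread between mice.

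The other members went with the index genes, which is a description, since the cells were chosen by their own UMIs. In neutrophil-like cells 28 of 28 tested members were called higher in positive than in negative cells in each of the 4 libraries, against 3.67%, 3.83%, 4.64% and 4.01% of all genes. The median log2 ratios were 2.38, 2.35, 2.59 and 2.55. In macrophage-like cells 29 of 30, 29 of 30, 28 of 30 and 27 of 29 were called higher, against 5.78%, 7.11%, 3.66% and 4.23% of all genes, with medians of 2.09, 2.0, 1.79 and 1.67. The exceptions were Irf9 in all 4 libraries, from 0.19 to 0.58, and Ifitm3 at 5 dpw, at 0.54 and 0.53. Ifit3 had log2 ratios of 5.07 to 5.47 in neutrophil-like and 4.54 to 5.60 in macrophage-like cells. Cxcl10 had 4.90 to 6.60 in macrophage-like cells. A UMI of Rsad2 was present in 51.7%, 51.5%, 27.5% and 42.4% of the macrophage-like cells. These UMIs were unevenly spread, since 50% of them lay in 3.31%, 3.93%, 1.80% and 3.59% of the macrophage-like cells.

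**Figure D5:**
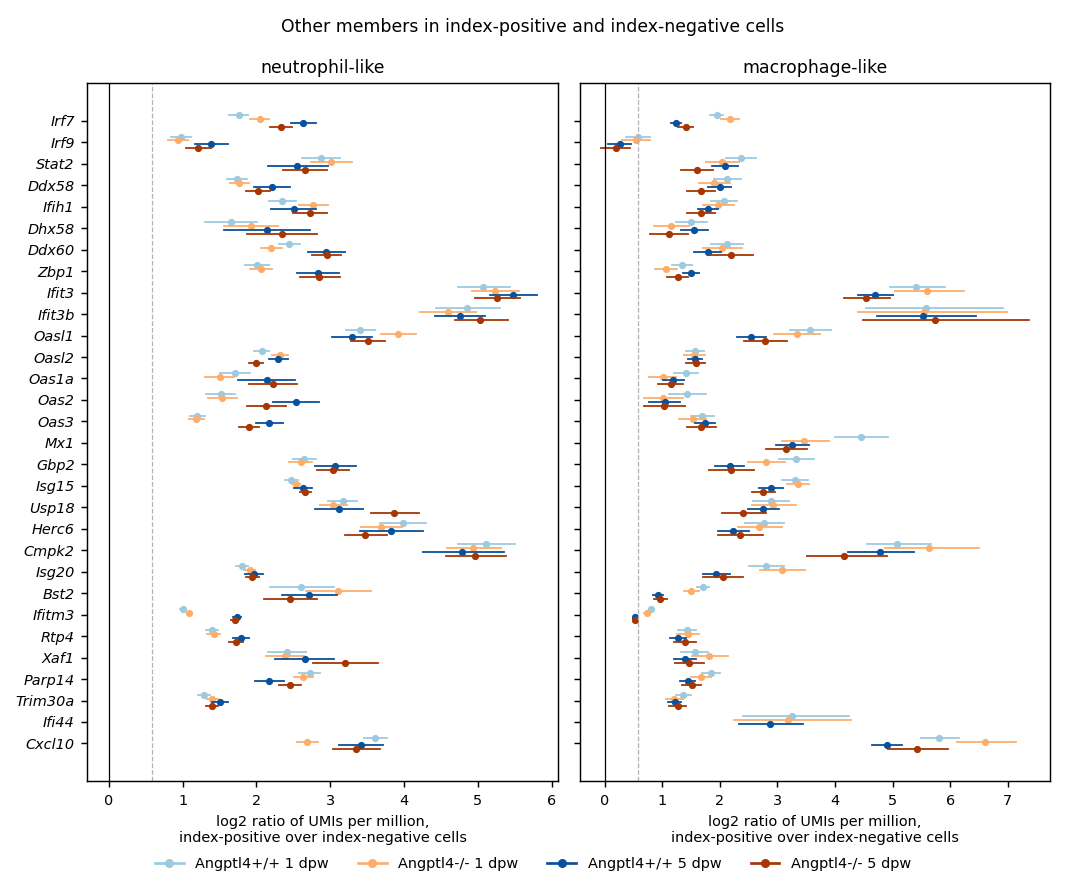
Log2 ratio of the level in index-positive to that in index-negative cells for the members outside the index, in neutrophil-like and macrophage-like cells, with 1 dot per library. Every gene lies above 0, Ifit3 and Cmpk2 are far to the right, and in macrophage-like cells Irf9 and Ifitm3 are nearest to 0.

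Values within these groups are a description too, since the index genes that chose the cells themselves fell with time in macrophage-like cells, and they rest on the members outside the index. Index-negative macrophage-like cells had day medians of -0.07 in Angptl4+/+ and -0.31 in Angptl4-/- wounds, and index-positive ones -0.35 and -0.60. Isg15 had 641 CPM in Angptl4+/+ and 1804 CPM in Angptl4-/- index-positive neutrophil-like cells at 1 dpw, a log2 ratio of 1.49 (1.44 to 1.55). In index-negative cells it had 115 and 312 CPM, a ratio of 1.43 (1.35 to 1.52). At 5 dpw the ratios were 1.06 and 1.03. In macrophage-like cells Isg15 had ratios of 1.27 and 1.04 in positive and 1.22 and 1.17 in negative cells. Isg15 was thus higher in Angptl4-/- wounds in index-positive and in index-negative cells on both days. A negative cell can hold 1 index UMI, as did 361 of the 3888 neutrophil-like and 120 of the 1119 macrophage-like cells of the Angptl4+/+ library of 1 dpw.

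Ligands of the pathway were near the limit of counting. Ifnb1, the gene of interferon beta, had 9 UMIs in all 19827 cells, 8 of them in macrophage-like cells and 1 in a monocyte-like cell. Ifnab and Ifnk had 3 UMIs each, and the 8 interferon alpha genes in the files, Ifne, Ifnl2 and Ifnl3 had 0. Ifng, the type II interferon, had 26, 13, 275 and 293 UMIs, and 593 of the 607 were in NK cell/T cell-like cells. Ligand RNA made outside CD45+ cells was not measured.

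The receptors were detected in all classes. Ifnar1 was at 180, 198, 139 and 152 CPM in macrophage-like and 52.2, 52.7, 81.5 and 87.7 CPM in neutrophil-like cells. Ifnar2 was at 205, 198, 227 and 228 CPM and 114, 108, 169 and 156 CPM. Ifngr1 was at 206, 227, 355 and 382 CPM in macrophage-like and 121, 116, 157 and 170 CPM in neutrophil-like cells, and Ifngr2 at 124, 158, 151 and 143 CPM and 67.8, 70.8, 114 and 116 CPM. Il10rb, shared with the lambda interferons, was at 152, 166, 159 and 163 CPM in macrophage-like cells. Ifnlr1, the other lambda chain, had 4, 1, 7 and 2 UMIs in macrophage-like cells and 170, 166, 59 and 82 in neutrophil-like cells. Of these 6 receptor genes, 6 had enough UMIs in neutrophil-like cells and 5 in macrophage-, monocyte- and dendritic cell-like cells. Between the genotypes 0 were called higher or lower on either day. Over all genes 0.958% to 3.14% were called higher and 1.86% to 3.74% lower in these classes, shares at which a count of 0 says little.

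A wider list of other type I interferon-induced genes went with the members. In macrophage-like cells from 1 to 5 dpw, 0 were called higher and 10 of 33 lower in Angptl4+/+ wounds, against 18.9% and 9.2% of all genes, and 0 higher and 14 of 32 lower in Angptl4-/- wounds, against 13.1% and 9.7%, with medians of -0.39 and -0.57. In monocyte-like cells 6 of 26 and 8 of 24 were called higher, against 7.15% and 6.13% of all genes, and 1 lower in each genotype, against 9.05% and 6.32%, with a median of 0.33 in both. In dendritic cell-like cells 2 of 31 were called higher and 10 lower in Angptl4+/+ wounds, against 5.92% and 12%, and 0 of 29 higher and 5 lower in Angptl4-/- wounds, against 4.08% and 8.96%, with medians of -0.40 and -0.29. Between the genotypes, the medians in macrophage-like cells were 0.26 at 1 dpw and 0.12 at 5 dpw, with 0 called either way, against 1.95% higher and 1.86% lower at 1 dpw and 1.81% and 3.37% at 5 dpw. Helz2, an interferon-induced helicase, was at 93.1, 109, 38.3 and 42.3 CPM in macrophage-like cells, log2 ratios of -1.28 and -1.36 with time.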

How the data were processed

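Cells of 4 wound libraries were measured with 10x Chromium 3' version 3 chemistry. The authors aligned the reads to mm10 with Cell Ranger 3.1.0 and deposited filtered UMI counts per gene and cell, and the submitters' processing notes also name Seurat 3.0. From the deposited counts, cells were kept if 200 or more genes were detected and no more than 10% of UMIs were mitochondrial. They were integrated and clustered in Seurat 5.3.0 (2000 variable genes without 172 interferon genes, 30 dimensions, resolution 0.5). The clusters were named from marker lists, so classes may differ from those of the study. Scrublet scores, computed in scanpy 1.11.5, marked the top 4% of cells (194 to 231 per library) as possible doublets, which were kept and left out in an alternative. UMIs were summed by class and library (numpy 2.4.6) and intervals taken from scipy 1.17.1, exact Poisson for levels, exact binomial for ratios and shares and Newcombe's for differences of shares, all at 95%. Medians and counts of genes above or below 0 add 0.5 UMI to each count. No test was made, since each condition is 1 library. The functions were tested on simulated counts. For thinning, 86 to 157 cells per library under 1000 UMIs were left out.

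The 34 genes, the 94 other pathway genes and the comparisons were chosen with earlier results of these data known. Any listed gene could be named. In full, those with the 6 highest levels and the 6 largest ratios in each direction were given per main comparison, and of the other pathway genes the ligands and receptors and the 3 largest ratios in each direction. The genes near Isg15 and the monocyte and cluster-leading genes were singled out after their values were seen. Mx2 was not analysed here. Alternatives changed the clustering, the classes, the cell filters, doublets, depth, weights, scaling and the UMI minimum.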

Additional observations from a re-analysis of the deposited data

Results flagged for a closer look

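For the genes below, differences of at least 1.5-fold with a counting interval that excludes 0 had opposite directions in different cell classes, with the same directions in both genotypes, or, for Cxcl10, on different days and in different genotypes. Further genes met this in part, for example in 1 genotype or with an interval that holds 0. Each condition is 1 library, so none of these contrasts between groups was tested. Values are log2 ratios, and pairs of values for 5 against 1 dpw are given for Angptl4+/+ and then Angptl4-/- wounds.

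Macrophage-like and monocyte-like cells moved in opposite directions from 1 to 5 dpw for Ifit3, Mx1, Ddx58 and Oas3, in both genotypes. The monocyte direction rests on how the class was drawn. With classes drawn by marker share, the monocyte ratios of these genes turned negative in Angptl4-/- wounds. Those of Mx1 and Ddx58 turned negative in Angptl4+/+ wounds as well. Ifit3 had -1.27 and -1.02 in macrophage-like cells and -0.69 and -1.65 in dendritic cell-like cells, but 2.96 and 2.22 in monocyte-like cells. Mx1 had -1.33 and -0.92 in macrophage-like and 1.36 and 1.61 in monocyte-like cells. Ddx58 had -0.88 and -0.71 in macrophage-like and 0.66 and 1.03 in monocyte-like cells. Oas3 had -0.59 and -0.86 in macrophage-like, -0.65 and -0.77 in dendritic cell-like and 0.77 and 0.84 in monocyte-like cells. Rtp4 had 1.22 and 1.30 in monocyte-like cells, while NK cell/T cell-like cells had -1.09 and -0.90. Macrophage-like cells had -0.64 and -0.57 of Rtp4.

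Ifit3b had 1.23 and 0.60 in neutrophil-like and -1.12 and -1.24 in macrophage-like cells. Against the median gene, the Angptl4-/- value of neutrophil-like cells turned to -0.076, so the contrast in that genotype rests on the scale. In Angptl4+/+ neutrophil-like cells Ifit3b was no longer called higher on that scale. How reads were split between Ifit3b and its close copy Ifit3 is uncertain.

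In monocyte-like cells Cxcl10 was higher in Angptl4-/- wounds at 1 dpw (1.07) and lower at 5 dpw (-1.43). From 1 to 5 dpw it had 0.99 in Angptl4+/+ and -1.5 in Angptl4-/- wounds. Of its 114 UMIs in Angptl4-/- wounds at 1 dpw, 79 came from 1 cell. Without the cell with the most member UMIs, the genotype ratio at 1 dpw turned to -0.63. The Angptl4-/- ratio with time starts from the same 114 UMIs, and the part of 1 cell in it was not tested.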

How the results depend on the processing

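No paired analysis was possible because each condition is 1 library and no test was run. The cause of the changes below was not tested. The genotype medians kept their sign under all 11 alternatives, at 0.23 to 0.33 and 0.16 to 0.39 in neutrophil-like cells at 1 and 5 dpw and 0.19 to 0.31 and 0.12 to 0.28 in macrophage-like cells. The macrophage day medians lay between -1.0 and -0.66 in Angptl4+/+ wounds and between -1.20 and -0.70 in Angptl4-/- wounds. The dendritic cell-like genotype median at 1 dpw ran from -0.35 to 0.20. The difference in index-positive macrophage-like cells at 1 dpw ran from -0.717 to 2.82 points. No median or share moved past the limit set for it (the median counting half-width of its genes, or its interval) when doublets were left out, at a 5% mitochondrial limit, without integration or at a minimum of 30 UMIs, though 6 of 149, 11 of 149, 23 of 148 and 0 of 152 single-gene ratios moved past their intervals.

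With classes drawn from each cell's summed marker share, the monocyte day medians turned to -0.085 in Angptl4+/+ and -0.38 in Angptl4-/- wounds. In Angptl4+/+ wounds Cxcl10 then had -0.71, Ddx58 -0.085 and Mx1 -0.44, and in Angptl4-/- wounds Ddx58 -0.34, Ifit3 -0.42, Irf7 -0.28, Mx1 -0.55 and Oas3 -0.058. At 1 dpw Oasl2 and Rtp4 turned to 0.12 and 0.11 between the genotypes in monocyte-like cells, and in dendritic cell-like cells Cxcl10 turned to -0.50, Ifit3 to -0.64 and the median to -0.35. The neutrophil medians moved to -0.43 with time in Angptl4+/+ wounds and to 0.39 between the genotypes at 5 dpw. The macrophage to neutrophil medians moved to 0.82, 0.74, 0.0098 and -0.32 (Angptl4+/+ and Angptl4-/- at 1 dpw, then at 5 dpw), and the index medians to 2.15, 2.18 and 2.15 in neutrophil-like cells (both genotypes at 1 dpw, Angptl4+/+ at 5 dpw) and 1.56 in macrophage-like cells (Angptl4+/+ at 5 dpw).

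Centred on the median gene, the macrophage to neutrophil medians were -0.43, -0.50, -0.76 and -0.83, with Rsad2 at -0.43 and -0.50 and Ifitm3 at -0.77 and -0.69 at 1 dpw. The neutrophil day medians were then -0.89 and -0.82, the macrophage one -0.98 in Angptl4+/+ wounds, and Ifit3b in Angptl4-/- neutrophil-like cells -0.076. At resolution 1.0 the macrophage day medians were -1.0 and -1.20, the macrophage to neutrophil medians 1.11 in Angptl4+/+ wounds at 1 dpw and -0.074 and -0.25 at 5 dpw, and an index median 2.32 (macrophage-like, Angptl4-/- at 1 dpw). With equal weight per cell, the macrophage day medians were -0.66 and -0.75, the macrophage to neutrophil medians 0.83 and 0.72 at 1 dpw, and the Angptl4-/- dendritic cell-like day median -0.17. Thinned to 1000 UMIs, the Angptl4-/- macrophage day median was -0.70, the macrophage to neutrophil medians at 1 dpw 0.74 and 0.74, an index median 2.81 (neutrophil-like, Angptl4-/- at 5 dpw) and the difference in index-positive macrophages at 5 dpw 3.52 points. With at least 1 index UMI an index median was 2.18 (neutrophil-like, Angptl4+/+ at 1 dpw). With interferon genes kept in the clustering, Ifit1 in dendritic cell-like cells at 5 dpw turned to -0.14. Leaving out the cell with the most member UMIs and leaving out monocyte-like cells with Ace, Adgre4, Treml4 or Cd300e were chosen after seeing the data. Under the former, Cxcl10 in monocyte-like cells at 1 dpw turned to -0.63.

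Counts of called genes moved with them. Apart from centring, the share over all genes was not computed under the alternatives, so whether all genes moved alike is not known. Called higher between the genotypes at 5 dpw were 3 macrophage genes, against 1 to 7 elsewhere, 4 neutrophil genes, against 10 by marker share, and 5 dendritic cell genes, against 0 with interferon genes kept. By marker share the monocyte day calls went from 14 and 16 higher to 1 and 0, and the dendritic cell ones from 13 and 15 lower to 22 and 9. Thinning took the Angptl4-/- macrophage fall from 25 to 16 of 29 genes.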

Other observations

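Genes tied to interferon gamma were called lower with time more often than all genes in macrophage-like cells, though not every one of them fell. Ciita, the factor that drives MHC class II genes, was at 7.11 and 12.0 CPM at 1 dpw and 68.3 and 73.2 CPM at 5 dpw in Angptl4+/+ and Angptl4-/- wounds. Gbp5, a guanylate-binding GTPase, went the other way, from 33.5 and 36.9 to 10.7 and 10.5 CPM. Of 10 such genes with enough UMIs in Angptl4+/+ wounds, 2 were called higher and 4 lower with time, against 18.9% and 9.2% of all genes, and of 8 in Angptl4-/- wounds 1 higher and 5 lower, against 13.1% and 9.7%. The numbers called higher are thus near those over all genes, and the numbers called lower are above them.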
